A study of Mus musculus with 6 samples.

Results

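Fc gamma receptors bind the constant part of IgG antibodies, and the signalling chains beside them carry the message into the cell. Transcripts of 6 such genes were measured in mouse peritoneal macrophages with and without Tet2: the activating receptors Fcgr1, Fcgr3 and Fcgr4, the inhibitory receptor Fcgr2b, and the adaptor chains Fcer1g and Tyrobp. The genes were chosen by name, and each had 1 probe set, so that they make up 6 of 23185 named genes on the array. Their measured values played no part in the rule, although earlier results of the same data were known when they were chosen.

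The cells were elicited with thioglycollate, an irritant injected into the peritoneal cavity, and were collected 4 days later from C57BL/6J mice that were Tet2-/- or from wild-type littermates. Per the labels' protocols they were plated without any added stimulus, and RNA was taken after 10 h. Each genotype had 3 arrays, numbered as biological replicates 4, 5 and 6. The labels give neither age nor sex, nor which stretch of Tet2 was deleted. No label says that each replicate was a separate mouse, and p-values therefore reflect only how these samples spread, which may be technical. For 4 of the 6 samples the title and the genotype field of the labels name opposite genotypes. The titles set the groups here, and "Tet2-/-" below means an array so titled.

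Tet2 itself was at log2 levels of 4.35, 3.74 and 3.79 in wild-type replicates 4, 5 and 6 and at 3.80, 4.05 and 3.67 in Tet2-/- replicates 4, 5 and 6. These values overlap, and since the place of the probes within the gene is not given, they check neither set of labels. Median levels per array ran from 2.76 to 2.93, and Tet2-/- replicate 6 had the highest median, the smallest interquartile range (2.99, against 3.16 to 3.33) and the lowest mean correlation with the other arrays (0.982, against 0.986 to 0.989). The macrophage genes Adgre1, Csf1r, Cd68, Itgam, Mertk and Cd14 had mean levels per gene between 7.74 and 11.0 in both groups; the macrophage marker Lyz2 was not analysed here.

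In mouse macrophages an immune complex is read by both kinds of receptor. Fcgr1, Fcgr3 and Fcgr4 lack a signalling motif of their own and depend on Fcer1g, the common gamma chain, whose cytoplasmic tail holds an immunoreceptor tyrosine-based activation motif (ITAM). When receptors are clustered, Src family kinases phosphorylate the ITAM, the kinase Syk docks on it, and phagocytosis, oxidant release and cytokine production follow. Fcgr2b carries an inhibitory motif (ITIM) in its own tail, which recruits the lipid phosphatase SHIP1, the product of Inpp5d. Tyrobp, also called DAP12, is another ITAM chain and serves receptors such as Trem2. In macrophages interferon gamma is known to raise activating receptors and interleukin-4 to raise Fcgr2b.

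Of the 6 genes, 5 have an entry in the RefSeq promoter table of build GRCm38.p6, all but Tyrobp. Fcgr2b, Fcgr4, Fcgr3 and Fcer1g lie near each other on chromosome 1, and Fcgr1 lies on chromosome 3. The windows below are the 250 bases before the annotated gene start of the 4 receptors. They are written 5′ to 3′ on the strand of the gene. They are shown because the 3 activating receptors hold an exact string of letters that the 1 inhibitory receptor lacks. The string is linked to PU.1, the macrophage transcription factor encoded by Spi1. It was chosen after values were seen, so the split is no evidence of a difference in PU.1 sites between the classes. Other forms of PU.1 site were not searched. Capitals mark matches to GAGGAA, a core of PU.1 sites that reads TTCCTC on the opposite strand. Both strands were searched.
Fcgr1, chr3:96293970-96294219, minus strand: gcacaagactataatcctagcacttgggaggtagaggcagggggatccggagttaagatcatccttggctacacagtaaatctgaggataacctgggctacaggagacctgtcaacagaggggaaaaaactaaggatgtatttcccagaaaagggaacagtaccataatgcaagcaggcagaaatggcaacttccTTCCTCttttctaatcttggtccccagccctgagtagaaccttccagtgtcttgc
Fcgr3, chr1:171059404-171059653, minus strand: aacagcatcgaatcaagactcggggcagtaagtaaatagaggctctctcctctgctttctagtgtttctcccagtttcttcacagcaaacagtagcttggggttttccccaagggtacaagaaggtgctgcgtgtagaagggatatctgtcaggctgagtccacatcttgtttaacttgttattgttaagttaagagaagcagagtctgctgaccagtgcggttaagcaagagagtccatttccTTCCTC
Fcgr4, chr1:171018676-171018925, plus strand: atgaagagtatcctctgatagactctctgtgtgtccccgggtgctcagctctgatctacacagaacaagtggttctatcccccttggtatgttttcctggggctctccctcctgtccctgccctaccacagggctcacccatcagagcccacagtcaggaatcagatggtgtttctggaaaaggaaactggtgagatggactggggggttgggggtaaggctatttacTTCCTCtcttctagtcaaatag
Fcgr2b, chr1:170976072-170976321, minus strand: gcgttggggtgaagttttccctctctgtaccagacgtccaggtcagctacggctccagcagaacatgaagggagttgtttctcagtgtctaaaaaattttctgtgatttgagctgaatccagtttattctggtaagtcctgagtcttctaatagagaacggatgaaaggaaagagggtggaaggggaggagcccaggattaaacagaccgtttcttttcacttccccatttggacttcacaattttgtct

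GAGGAA was found in the windows of all 3 activating receptors and in 23.3% of the 32851 RefSeq promoter windows of the same length. Its match began 55 bases before the start of Fcgr1, 22 before that of Fcgr4 and 6 before that of Fcgr3, or 15 before the other of 2 annotated starts of Fcgr3. The windows of Fcgr2b and Fcer1g held no such letters. A match is a description of the letters, not a measured binding site.

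The genotype comparison asks which transcripts differ when Tet2, a dioxygenase that oxidises methylated cytosine in DNA, is absent. By limma's moderated test with Benjamini-Hochberg adjustment, 0 of the 6 genes passed an adjusted p of 0.05, and the background was 0% of 25206 probe sets. At an unadjusted p under 0.05 there were 0 of the 6 against a background of 3.61%, or 910 probe sets (1.71% higher and 1.9% lower). Without Tet2-/- replicate 6, Fcgr2b and Tyrobp fell under it (limma unadjusted p = 0.0499 and 0.0106), beside 2489 of 25206 probe sets. With array weights, 0.297 for that array, Tyrobp did (limma unadjusted p = 0.0127), beside 2088. Without wild-type replicate 4, Fcgr4 did (limma unadjusted p = 0.00854), beside 819. For none of the 6 did the 3 arrays of one genotype lie on 1 side of all arrays of the other, which happened for 7.41% of all probe sets (3.33% higher and 4.07% lower in Tet2-/- cells). The activating receptors and Tyrobp had lower means in Tet2-/- cells, Fcgr2b had a higher mean, and Fcer1g was nearly level. By count, 5 of the 6 had a lower mean and 1 a higher one, with a median difference of -0.18, beside 50% lower, 49.2% higher and a median of 0 over all probe sets. A further quantile normalization put Fcer1g slightly higher, so that 4 were lower and 2 higher. Without Tet2-/- replicate 6 the count was also 4 lower and 2 higher, with a median of -0.091.

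**Figure D1:**
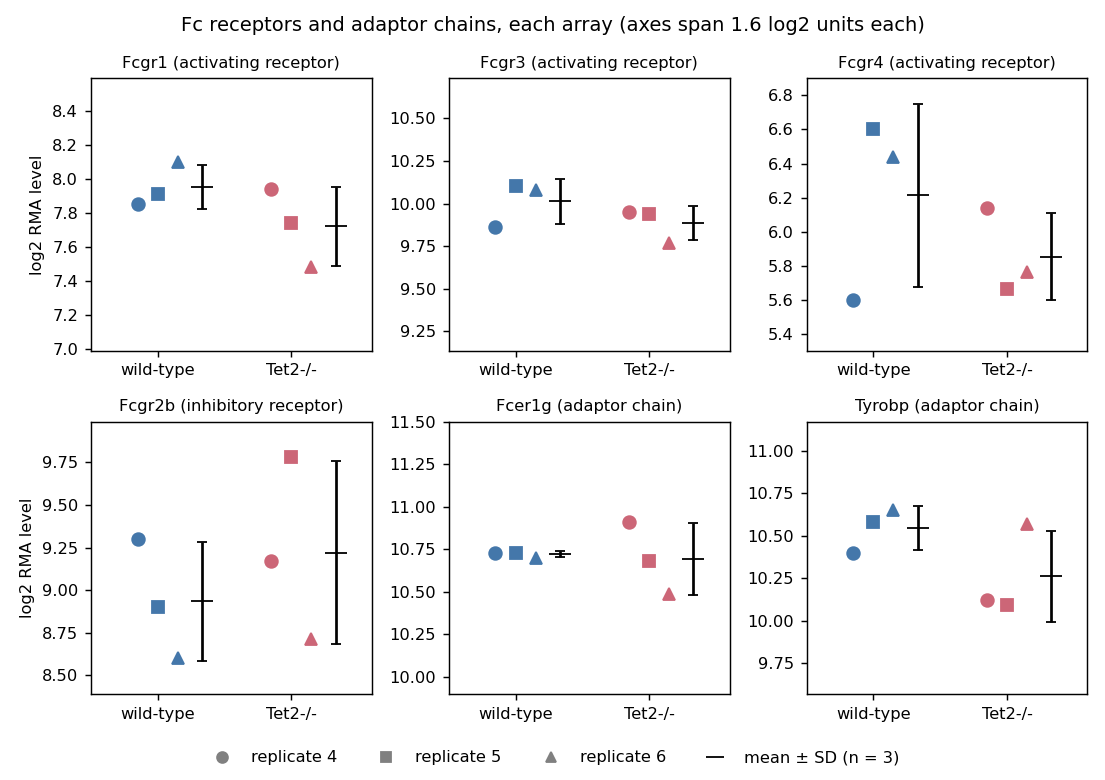
Log2 RMA level (vertical axis, log2 units) of each of the 6 genes on each array, with wild-type in blue, Tet2-/- in red, a symbol for each replicate number and the mean ± SD of 3 arrays in black. The genotypes overlap for every gene, and wild-type replicate 4 sits apart from replicates 5 and 6 for Fcgr4, at 5.60 against 6.60 and 6.44.

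Fcgr1 encodes CD64, the high-affinity receptor for IgG. Its log2 level was 7.85, 7.91 and 8.10 in wild-type replicates 4, 5 and 6 and 7.94, 7.74 and 7.48 in Tet2-/- replicates 4, 5 and 6. Tet2-/- replicates 5 and 6 lay below every wild-type array, whereas replicate 4 lay among them. The means were 7.95 ± 0.131 (SD, n = 3) and 7.72 ± 0.231 (SD, n = 3), a log2 difference of -0.23 (standard error, SE, 0.157, 95% interval -0.59 to 0.12, limma adjusted p = 0.998). Without Tet2-/- replicate 6 the difference was -0.11.

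Fcgr3 encodes the mouse CD16 receptor, which binds immune complexes with low affinity. It stood at 9.86, 10.10 and 10.08 in wild-type replicates 4, 5 and 6 and at 9.95, 9.94 and 9.77 in Tet2-/- cells in the same order. Here wild-type replicate 4 lay among the Tet2-/- arrays and replicates 5 and 6 lay above all of them. The log2 difference was -0.13 (SE 0.135, 95% interval -0.43 to 0.18, limma adjusted p = 0.998). It was -0.068 when Tet2-/- replicate 6 was left out, -0.083 when wild-type replicate 5 was and -0.20 when wild-type replicate 4 was. Fcgr3 and Fcgr2b have nearly identical extracellular regions, and the probe sequences were not used here, so how far each probe set reads the other transcript was not tested.

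Fcgr4, the mouse receptor for IgG2a and IgG2b complexes, varied most among wild-type arrays. Its level was 5.60, 6.60 and 6.44 in wild-type replicates 4, 5 and 6 and 6.14, 5.66 and 5.76 in Tet2-/- replicates 4, 5 and 6. Wild-type replicate 4 had the lowest value of all 6 arrays, and the other wild-type arrays had the highest values. The means were 6.21 ± 0.537 and 5.85 ± 0.253 (SD, n = 3 each), a log2 difference of -0.36 (SE 0.259, 95% interval -0.95 to 0.23, limma adjusted p = 0.998). Leaving out wild-type replicate 4 gave -0.67 (limma adjusted p = 0.999), and leaving out wild-type replicate 5 gave -0.17 (limma adjusted p = 1).

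Fcgr2b, the only inhibitory Fc gamma receptor of the mouse, stood at 9.30, 8.90 and 8.60 in wild-type replicates 4, 5 and 6. In Tet2-/- replicates 4, 5 and 6 it stood at 9.17, 9.78 and 8.71. The highest array was Tet2-/- replicate 5 and the lowest wild-type replicate 6, but Tet2-/- replicate 6 was the second lowest and wild-type replicate 4 the second highest. The means were 8.93 ± 0.351 and 9.22 ± 0.537 (SD, n = 3 each), a log2 difference of 0.29 (SE 0.275, 1.22-fold, 95% interval -0.34 to 0.91, limma adjusted p = 0.998). Single arrays decided its size: it was 0.0067 when Tet2-/- replicate 5 was left out and 0.54 when Tet2-/- replicate 6 was, 0.12 when wild-type replicate 6 was and 0.47 when wild-type replicate 4 was. Which splice forms of the gene its 1 probe set reads is not known here, and the forms of B cells and macrophages were not measured apart.

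B cells also carry Fcgr2b, and their markers differed between the arrays. Of 10 B-cell markers 8 were measured, and all 8 had a higher mean in Tet2-/- cells (49.2% of all probe sets did), with a median difference of 0.71. Without Tet2-/- replicate 5 or 6, 7 of 8 markers did so, with a median of 0.24 or 1.12. The mean level of these markers was 2.62 to 2.83 in wild-type arrays and 2.82 to 4.28 in Tet2-/- arrays. Both the B-cell markers and Fcgr2b were highest in Tet2-/- replicate 5, at 4.28 and 9.78. In wild-type replicate 4 the B-cell markers stood at 2.62 and Fcgr2b at 9.30, and in Tet2-/- replicate 4 they stood at 3.48 and 9.17. In RNA from bulk cells, fewer cells of a type and less RNA per cell cannot be told apart.

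The mean level of the 6 measured macrophage markers was 9.29, 8.88 and 8.89 in wild-type replicates 4, 5 and 6 and 9.32, 9.52 and 8.66 in Tet2-/- replicates 4, 5 and 6. As for Fcgr2b, the highest value was in Tet2-/- replicate 5, and wild-type replicate 4 exceeded the other wild-type arrays. Their median difference of 0.16 was -0.012 when Tet2-/- replicate 5 was left out and 0.42 when Tet2-/- replicate 6 was. Markers of monocytes and small peritoneal macrophages, 7 measured, had 6 higher means and a median difference of 0.53, with mean levels of 4.41 to 4.79 in wild-type and 4.78 to 5.84 in Tet2-/- arrays, and the median was 0.35 when Tet2-/- replicate 5 was left out and 0.80 when Tet2-/- replicate 6 was. Markers of resident large peritoneal macrophages, also 7, had 6 higher means and a median of 0.56, with 4.60 to 4.94 and 4.68 to 5.95. Without Tet2-/- replicate 6 all 7 were higher and the median was 0.96. Tet2-/- replicate 5 was again the highest array for both. The part of these marker levels in the values of Fcgr2b and the other receptors was not tested.

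Fcer1g, the ITAM chain shared by the activating receptors, was nearly constant in wild-type cells, at 10.73, 10.73 and 10.70 in replicates 4, 5 and 6. Tet2-/- replicates 4, 5 and 6 stood at 10.91, 10.68 and 10.49 and so lay on both sides of the wild-type values. The SD was 0.0173 in wild-type and 0.210 in Tet2-/- arrays. The log2 difference was -0.027 (SE 0.144, 95% interval -0.35 to 0.30, limma adjusted p = 0.998). Leaving out Tet2-/- replicate 4 gave -0.135. It was 0.075 without Tet2-/- replicate 6 and 0.028 after a further quantile normalization, so its direction was not settled.

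Tyrobp, the DAP12 chain, stood at 10.40, 10.58 and 10.65 in wild-type replicates 4, 5 and 6. Tet2-/- replicates 4 and 5 were lower than every wild-type array, at 10.12 and 10.09, and Tet2-/- replicate 6, at 10.57, lay within the wild-type range. The means were 10.5 ± 0.129 and 10.3 ± 0.269 (SD, n = 3 each), a log2 difference of -0.28 (SE 0.166, 0.822-fold, 95% interval -0.66 to 0.092, limma adjusted p = 0.998). Without Tet2-/- replicate 6 the difference was -0.44, the largest of the 6 leave-one-out values of this gene in size, and it did not pass (limma adjusted p = 0.383).

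**Figure D2:**
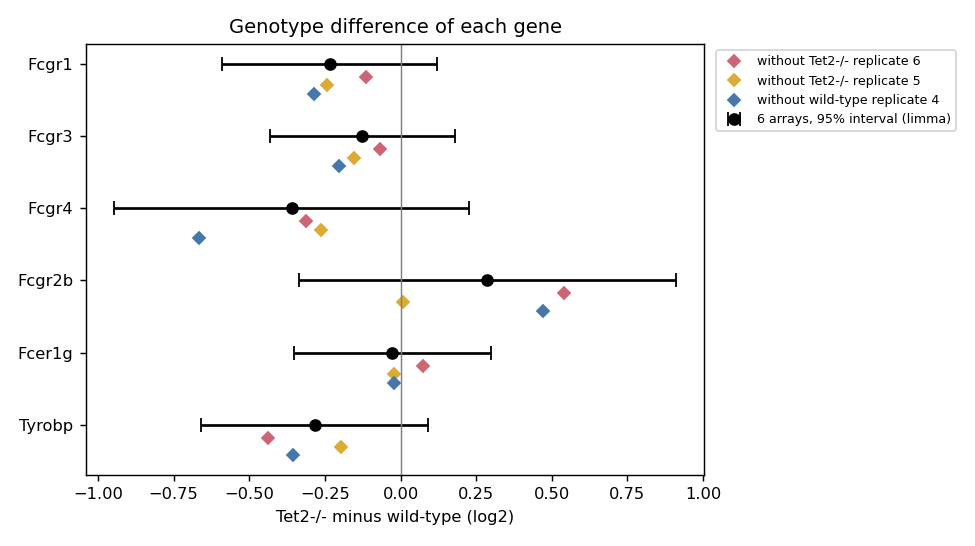
Log2 difference between Tet2-/- and wild-type means for each gene (horizontal axis), with the value of all 6 arrays and its 95% limma interval in black and the value without 1 named array as coloured diamonds. All 6 intervals include 0, and Fcgr2b ranges from 0.0067 without Tet2-/- replicate 5 to 0.54 without Tet2-/- replicate 6.

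NK cells carry Fcgr3, Fcer1g and Tyrobp. Of 8 NK-cell markers 7 were measured, 5 with a higher and 2 with a lower mean in Tet2-/- cells (1 higher and 6 lower without Tet2-/- replicate 6), and their mean level was 2.11 to 2.25 in wild-type and 2.01 to 2.43 in Tet2-/- arrays. Mast cells use Fcer1g with Fcer1a and Ms4a2, the other chains of the IgE receptor. The mean level of 8 mast-cell markers was 2.01 to 2.06 in wild-type and 2.02 to 2.21 in Tet2-/- arrays, and Fcer1a itself had means of 1.15 and 1.23. Of 9 neutrophil markers, 8 had a higher and 1 a lower mean, beside 49.2% higher over all probe sets. Their median was 0.15, and their mean level was 2.78 to 2.92 in wild-type and 2.95 to 3.18 in Tet2-/- arrays. Without Tet2-/- replicate 6, 5 were higher and 4 lower, with a median of 0.05. The part of neutrophils in the receptor values was not tested. No value on this scale is a measured 0, because background levels per probe set were not used here.

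The balance of activating and inhibitory receptors was compared as the log2 difference of each activating receptor from Fcgr2b on the same array. Levels of different probe sets cannot be ranked against each other, so only the move of this difference between genotypes is read. It was lower in Tet2-/- cells for all 3 activating receptors, which share Fcgr2b and are therefore not independent. With groups from the genotype field, which contradicts the titles, the direction was reversed for all 3. The exact two-sided permutation test over 3 against 3 arrays cannot give a p below 0.1.

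Fcgr1 relative to Fcgr2b stood at -1.45, -0.99 and -0.50 in wild-type replicates 4, 5 and 6 and at -1.23, -2.04 and -1.23 in Tet2-/- replicates 4, 5 and 6. Wild-type replicate 4 lay within the Tet2-/- range and the other wild-type arrays lay above it. The genotypes differed by -0.52 (exact permutation p = 0.3, 0.4 after adjustment over 3 ratios). Without wild-type replicate 4, the only wild-type array within the Tet2-/- range, the difference was -0.755 (exact permutation p = 0.1). Leaving it out had to end the overlap of the groups, so the lack of overlap is no further evidence. Leaving out wild-type replicate 6 gave -0.28, and leaving out Tet2-/- replicate 5 gave -0.25.

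Fcgr3 relative to Fcgr2b stood at 0.56, 1.20 and 1.48 in wild-type and at 0.78, 0.16 and 1.06 in Tet2-/- replicates 4, 5 and 6, a difference of -0.41 (exact permutation p = 0.4, adjusted 0.4). Fcgr4 relative to Fcgr2b stood at -3.70, -2.30 and -2.16 in wild-type and at -3.03, -4.12 and -2.95 in Tet2-/- replicates 4, 5 and 6, a difference of -0.65 (exact permutation p = 0.4, adjusted 0.4). In both ratios wild-type replicate 4 lay among the Tet2-/- arrays. Leaving out wild-type replicate 4 moved the Fcgr3 difference to -0.67 and the Fcgr4 difference to -1.14 (exact permutation p = 0.2 and 0.1). The groups then overlapped in neither ratio. That outcome was fixed by the choice of array, because replicate 4 was the only wild-type array within the Tet2-/- range. Leaving out wild-type replicate 6 gave -0.21 and -0.37, and leaving out Tet2-/- replicate 5 gave -0.16 and -0.27. The mean of the 3 ratios, given without a test, was -1.53, -0.70 and -0.39 in wild-type and -1.16, -2 and -1.04 in Tet2-/- replicates 4, 5 and 6. With a smallest possible p of 0.1, these tests could not have passed 0.05, and they do not show that the ratios were alike.

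**Figure D3:**
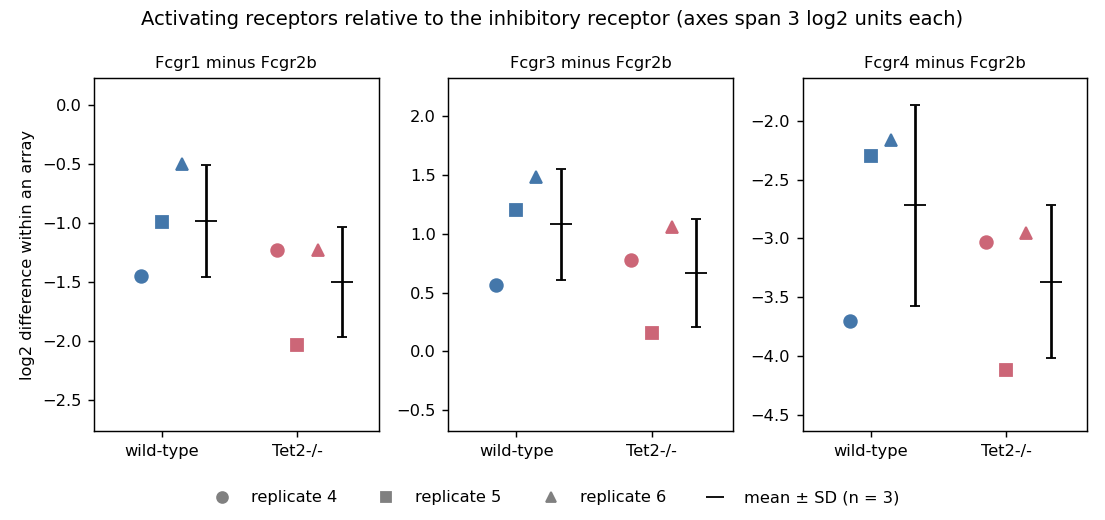
Log2 level of each activating receptor minus that of Fcgr2b on the same array (vertical axis, log2 units), with colours and symbols as in the plot of levels by array and the mean ± SD of 3 arrays in black. Tet2-/- replicate 5 has the lowest value in all 3 panels, and wild-type replicate 4 lies below wild-type replicates 5 and 6 in each.

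Correlations were computed over the 6 arrays for the 15 pairs of these genes, and 0 of the 15 passed after Benjamini-Hochberg adjustment. The strongest was negative: Fcgr2b and Tyrobp had r = -0.861 (exact permutation p = 0.0236, adjusted 0.222) and rho = -0.886 (exact permutation p = 0.0333, adjusted 0.438). Tyrobp was lowest where Fcgr2b was highest, in Tet2-/- replicate 5, and highest where Fcgr2b was lowest, in wild-type replicate 6. Without these arrays, the 2 farthest from the median of Fcgr2b, r was -0.680, and over deviations from the group means it was -0.877.

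Fcgr3 and Fcgr4 had r = 0.857 (exact permutation p = 0.0389, adjusted 0.222), rho = 0.829 (exact permutation p = 0.0583, adjusted 0.438) and r = 0.893 without the 2 farthest arrays. Fcgr1 and Fcgr3 had r = 0.819 (exact permutation p = 0.0444, adjusted 0.222) and rho = 0.771 (exact permutation p = 0.103, adjusted 0.486). For this pair r was 0.362 without wild-type replicate 6 and Tet2-/- replicate 6, the 2 farthest from the median of Fcgr1. Over deviations from the group means it was 0.732. Between Fcgr2b and Fcgr1, Fcgr3 and Fcgr4, r was -0.138, -0.180 and -0.589 over 6 arrays (exact permutation p = 0.804, 0.725 and 0.219, adjusted 0.862, 0.837 and 0.549), with rho of -0.371, -0.257 and -0.657 (exact permutation p = 0.497, 0.658 and 0.175, adjusted 0.678, 0.762 and 0.486). Without the 2 arrays farthest from the median of the activating receptor, r was -0.902, -0.703 and -0.282, and over deviations from the group means it was 0.110, 0.0227 and -0.510. Fcgr1 and its chain Fcer1g had r = 0.715 (exact permutation p = 0.0917, adjusted 0.344), with rho = 0.638 (exact permutation p = 0.194, adjusted 0.486) and r = 0.761 without the 2 farthest arrays.

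The genes most like each receptor over the 6 arrays were sought among 10933 brighter and variable named genes. For Fcgr2b they were Ice1 and Rnf20 (r = 0.997 and 0.996), and 539 genes reached an r of at least 0.9. For Fcgr4 they were Gpn1 and Disp3 (r = 0.992 and 0.981), with 81 genes at that level, and for Fcgr3 Coq2 and Erlin1 (r = 0.999 and 0.990), with 44. For Fcgr1 they were Dph2 and 4921531C22Rik (r = 0.998 and 0.994), with 135. For Fcer1g they were Slc25a39 and Tada3 (r = 0.997 and 0.986), with 354, and for Tyrobp Cops9 and Mrps6 (r = 0.987 for both), with 256. All genes were read from the same 6 arrays, so these values describe likeness of pattern in these arrays, and no p is given.

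Neighbours on chromosome 1 had differences in both directions. Between Fcgr2b and Fcer1g, 6 other genes were measured, 3 with higher and 3 with lower means, and their differences ran from -0.31 to 0.097 (limma adjusted p = 0.998 for each). Within the cluster Fcgr2b and Fcgr4 differed in opposite directions, by 0.29 and -0.36, and neither passed.

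Other receptors for antibody or related to Fc receptors all had higher means in Tet2-/- cells, 14 of 14, beside 49.2% of all probe sets. Their median was 0.15, and 0 passed (limma, smallest adjusted p = 0.998). Unlike the 6 genes above, many lay near the low end of the scale, where fold differences may be understated. Pigr, Fcer2a, Fcamr and Fcrlb were each highest on Tet2-/- replicate 6, the array with the highest median, whereas Fcmr and Fcrl1 were lowest there. The part of that array's scale in these differences was not tested. Fcrls, a macrophage and microglia gene of the Fc receptor-like family, was at 4.76, 4.42 and 4.91 in wild-type and 5.00, 5.46 and 5.14 in Tet2-/- replicates 4, 5 and 6, so every Tet2-/- array exceeded every wild-type array. Its log2 difference was 0.50. Groups also did not overlap for Fcrl5, a B-cell member of that family, which differed by 0.50 between means of 2.34 and 2.83. In all, 3 of the 14 were wholly higher, beside 3.33% of all probe sets. Fcmr, the IgM receptor of lymphocytes, differed by 0.56, by 0.28 when Tet2-/- replicate 5 was left out and by 0.93 when Tet2-/- replicate 6 was. Fcgrt, the neonatal Fc receptor that recycles IgG, and Trim21, the cytosolic antibody receptor, differed by 0.13 and 0.16. The count of higher means was 13 of 14 after median-centring or a further quantile normalization and 11 of 14 when either Tet2-/- replicate 5 or 6 was left out. It was not computed with groups from the genotype field, where Fcrl5 and Fcrls turned to -0.0033 and -0.037 and Fcmr stayed higher at 0.13. Several of the 14 genes belong to B cells, whose markers had the higher levels in Tet2-/- arrays given above, and the part of those cells was not tested.

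Receptors that signal through Fcer1g or Tyrobp had higher means in Tet2-/- cells more often than lower ones, and 0 of them passed (limma, smallest adjusted p = 0.998). Over all probe sets 49.2% had a higher mean. Of 6 measured partners of Fcer1g, 5 were higher and 1 lower with a median of 0.21, which was 0.031 without Tet2-/- replicate 6. The count was 3 higher and 3 lower when wild-type replicate 4 was left out. The fungal lectin receptor Clec4n (Dectin-2) was at 6.09, 5.81 and 5.66 in wild-type and 6.07, 6.59 and 6.23 in Tet2-/- replicates 4, 5 and 6, a difference of 0.44. Tet2-/- replicate 4 lay within the wild-type range. Clec4e (Mincle) differed by 0.54, or by 0.225 when Tet2-/- replicate 5 was left out and 0.33 when wild-type replicate 5 was, while its neighbour Clec4d differed by -0.03. Gp6, the collagen receptor of platelets, lay near the low end at 1.84 and 2.18, with a difference of 0.34 that was -0.065 without Tet2-/- replicate 6.

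Of 13 measured partners of Tyrobp, 10 were higher and 3 lower, with a median of 0.053, which was 0.035 without wild-type replicate 4 and between 0.14 and 0.25 when any other array was left out. Trem1, which amplifies inflammatory signals in myeloid cells, was at 3.72, 2.87 and 3.27 in wild-type and 4.14, 4.38 and 3.55 in Tet2-/- replicates 4, 5 and 6, a difference of 0.74 (SE 0.262, limma adjusted p = 0.998). Only Tet2-/- replicate 6 lay within the wild-type range. Pilrb1, an activating paired receptor, differed by 0.79 with no overlap between genotypes, and by 0.39 without Tet2-/- replicate 5. Trem3 differed by 0.36 between means of 2.51 and 2.87. Trem2, the lipid receptor of tissue macrophages, had means of 10.4 and 10.3 and differed by -0.12.

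Signalling genes below the ITAM were split: of 27 measured, 15 were higher and 12 lower, with a median of 0.03 and 0 past the threshold (limma, smallest adjusted p = 0.998). The split rested on single arrays, with 6 higher and 21 lower (median -0.078) when Tet2-/- replicate 5 was left out and 21 higher and 6 lower (median 0.14) when Tet2-/- replicate 6 was. Syk, the kinase that reads the phosphorylated ITAM, had means of 7.22 in wild-type and 7.33 in Tet2-/- cells and differed by 0.11. The 3 genes with the smallest p were adaptors and an exchange factor. Lat, a membrane scaffold best known in T cells, was at 4.79, 5.38 and 4.89 in wild-type and 4.30, 3.96 and 4.92 in Tet2-/- replicates 4, 5 and 6. Its difference was -0.63, or -0.41 when Tet2-/- replicate 5 was left out, and Tet2-/- replicate 6 lay within the wild-type range. Lcp2 (SLP-76) and Vav1, which act next to each other below Syk, differed by 0.43 and 0.35. These were 0.245 and 0.20 when Tet2-/- replicate 5 was left out and 0.65 and 0.51 when Tet2-/- replicate 6 was. The Src family kinase Lyn was not analysed here.

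**Figure D4:**
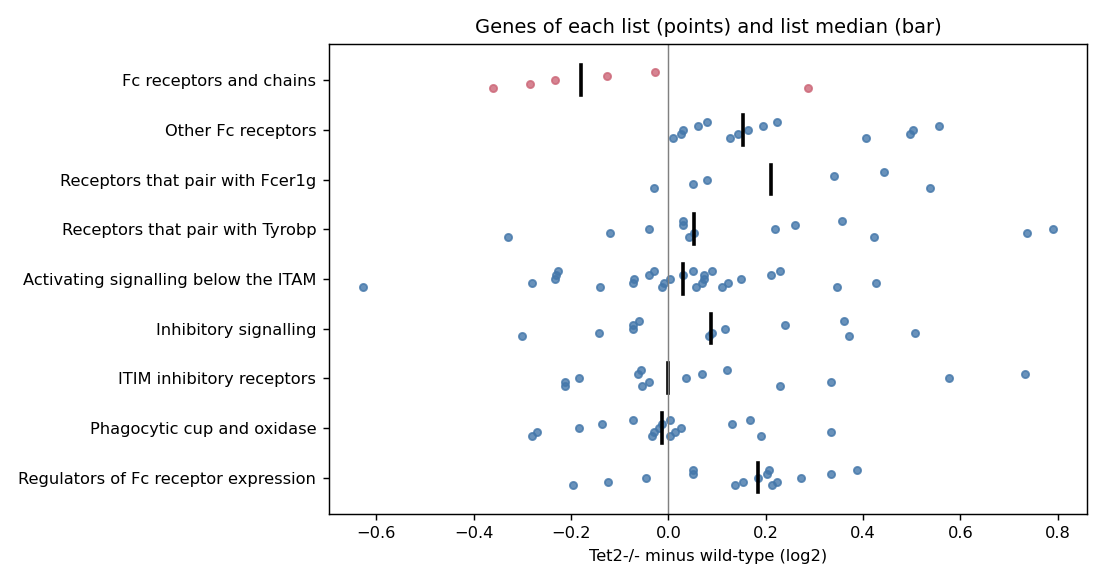
Log2 difference between Tet2-/- and wild-type means (horizontal axis) of every measured gene in each list, as points spread vertically for sight, with the list median as a black bar. The 6 Fc receptor and chain genes have a median of -0.18, the other Fc receptors one of 0.15 with all 14 points above 0, and the signalling genes below the ITAM one of 0.03.

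Of 12 genes that restrain Fc receptor signalling, 7 were higher and 5 lower, with a median of 0.087 that ran from 0.014 to 0.19 over left-out arrays, and 0 past the threshold. Inpp5d, the SHIP1 phosphatase recruited by Fcgr2b, differed by 0.36, between means of 7.15 ± 0.486 and 7.51 ± 0.618 (SD, n = 3 each). The groups overlapped, at 7.65, 6.68 and 7.12 in wild-type and 7.58, 8.09 and 6.86 in Tet2-/- replicates 4, 5 and 6. Ptpn6, the SHP-1 phosphatase, differed by 0.12. By smallest p the named genes were Dok2, an adaptor that dampens Ras signalling, at -0.30 (-0.16 without wild-type replicate 6), the phosphatase Ptpn22 at 0.51 and Csk, the kinase that inactivates Src family kinases, at 0.37. Csk differed by 0.11 when Tet2-/- replicate 4 was left out, Ptpn22 by 0.29 when Tet2-/- replicate 5 was, and both by more, 0.63 and 0.87, when Tet2-/- replicate 6 was.

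Of the 14 other receptors with an ITIM that were listed, 7 were higher and 7 lower, with a median of -0.0017. Siglecf, an ITIM receptor placed only among the eosinophil markers, was not in that list. It was at 5.37, 5.58 and 5.02 in wild-type and 4.65, 3.58 and 4.12 in Tet2-/- replicates 4, 5 and 6 respectively. Its difference was -1.21 with no overlap, and it did not pass (limma adjusted p = 0.879). Wholly lower groups occurred for 4.07% of all probe sets. Pecam1, an adhesion receptor, was at 2.79, 2.89 and 2.68 in wild-type and 3.29, 4.00 and 3.27 in Tet2-/- replicates 4, 5 and 6. These groups did not overlap, and the difference was 0.73 (SE 0.204, limma adjusted p = 0.998). Ceacam1 and Pilra, the inhibitory counterpart of Pilrb1, differed by 0.58 and 0.33 with overlap, by 0.25 and 0.18 when Tet2-/- replicate 5 was left out and by 0.90 and 0.52 when Tet2-/- replicate 6 was. Pirb and Sirpa, 2 inhibitory receptors of macrophages, differed by -0.04 and -0.057.

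Genes of the phagocytic cup and the NADPH oxidase were also split, 8 higher and 9 lower of 17 measured, with a median of -0.013 and 0 past the threshold. The count was 3 higher and 14 lower without Tet2-/- replicate 5, 12 and 5 without Tet2-/- replicate 6, 5 and 12 after median-centring, and 11 and 6 after a further quantile normalization. Arpc5, a subunit of the actin-nucleating Arp2/3 complex, differed by -0.27, the oxidase subunit Cyba by -0.28 and the oxidase organiser Ncf1 by 0.33. Leaving out Tet2-/- replicate 5 gave -0.145 for Cyba and 0.14 for Ncf1, and leaving out Tet2-/- replicate 6 or wild-type replicate 4 gave 0.54 or 0.56 for Ncf1. Ncf1 was also at 0.21 without wild-type replicate 6. Rac2, the GTPase that activates the oxidase, differed by 0.0033 and Cybb, its catalytic subunit, by 0.13.

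Among cytokine receptors and transcription factors known to control Fc receptor expression, 12 of 15 measured had higher and 3 lower means, beside 49.2% higher over all probe sets. Their median was 0.18, with 0 past the threshold (limma, smallest adjusted p = 0.998). Without Tet2-/- replicate 6 the count was 14 higher and 1 lower with a median of 0.325, and it was 9 higher and 6 lower when Tet2-/- replicate 4 or wild-type replicate 5 was left out. Irf1, an interferon-induced factor, was at 4.48 ± 0.121 in wild-type and 4.82 ± 0.196 in Tet2-/- cells (SD, n = 3 each), a difference of 0.33. Il10ra, Tgfbr1 and Il4ra, receptors for interleukin-10, TGF-beta and interleukin-4, differed by 0.39, 0.20 and 0.27. Il10ra differed by 0.19 when Tet2-/- replicate 5 was left out and by 0.65 or 0.58 when Tet2-/- replicate 6 or wild-type replicate 4 was, and Tgfbr1 by 0.115 when wild-type replicate 6 was. Spi1, which encodes PU.1, had means of 9.74 and 9.62 and differed by -0.12.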

How the data were processed

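RNA from 6 samples, 3 per genotype, was measured on whole-transcript expression arrays. The authors deposited log2 values, and the submitters' processing notes name RMA (background correction, quantile normalization, probe summary) and affy 1.36.1. The log2 scale was read from the values, and joint normalization of the arrays is not given in the sources used here. RMA compresses differences near the background, and 3 arrays per group limit precision.

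All 25206 probe sets entered a two-sided fit without covariates (limma 3.58.1, functions lmFit and eBayes, under R 4.3.3), with Benjamini-Hochberg adjustment over all of them and a threshold of 0.05. The platform annotation named 23185 probe sets, all found in the RefSeq table of GRCm38.p6, and 2021 stayed unnamed. The fit was tested on simulated data. Receptor ratios used exact permutation tests. Likeness was Pearson's r among named probe sets at or above the median level and with an SD of at least 0.1.

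The members and gene lists were chosen with earlier results of these data known. Named from each list were the 3 genes with the smallest p. Fcgrt, Trim21, Clec4d, Trem2, Syk, Inpp5d, Ptpn6, Pirb, Sirpa, Rac2, Cybb, Il4ra, Spi1, Fcer1a and the motif searched were chosen after values were seen. Alternatives were the genotype field, a replicate block, other scalings, variance models, array weights, brighter probe sets, another threshold and leaving out each array. Some items are not reported here.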

Additional observations from a re-analysis of the deposited data

How the results depend on the processing

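No gene of the 6 passed the threshold under any setting tried. Over all probe sets the count past an adjusted p of 0.05 was 0, from 0 to 19 when single arrays were left out (19 without Tet2-/- replicate 6) and 2 with array weights. With the replicate number as a block it was 0 and no call changed. The numbers showed no pairing of the samples: same-numbered arrays had correlations of deviations from -0.215 to 0.15, and 1 of 3 wild-type arrays matched its own number best. With 3 arrays per group this check cannot exclude that same-numbered samples were prepared together. Fcer1g turned to 0.075 without Tet2-/- replicate 6, 0.028 after further quantile normalization and 0.065 with array weights, and Gp6, from -0.065 to 0.59 over left-out arrays, to -0.065 without Tet2-/- replicate 6. With groups from the genotype field, Fcgr1, Fcgr3, Fcgr4 and Tyrobp turned to 0.16, 0.18, 0.40 and 0.077, and the ratios of Fcgr1, Fcgr3 and Fcgr4 to Fcgr2b to 0.13, 0.15 and 0.37. Fcrl5, Fcrls, Clec4n, Gp6, Trem1 and Trem3 turned to -0.0033, -0.037, -0.11, -0.59, -0.30 and -0.0033, Lat, Lcp2 and Vav1 to 0.073, -0.027 and -0.093, Dok2, Csk and Ceacam1 to 0.18, -0.09 and -0.097, and Arpc5, Cyba, Ncf1, Il10ra and Tgfbr1 to 0.14, 0.073, -0.16, -0.13 and -0.10. That grouping reassigns 4 samples, and otherwise the cause was not tested. Fcgr2b kept its sign in all 13 alternatives, from 0.0067 to 0.54. Of these, the replicate block, the variance model and the brighter probe sets could not move its difference, which stayed at 0.29. It was 0.033 with groups from the genotype field and 0.0067 without Tet2-/- replicate 5. List medians under left-out arrays and other scalings were added after seeing the data.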
